A study of Saccharomyces cerevisiae with 28 samples.

Results

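The low fluorescence fractions of the early and the main activation screens hold the same plasmid library of guides after 2 sampling efforts of different size, and the 10 libraries described here, of 28 in the series, were chosen by their labels as all low fraction libraries of an activation screen. Of these, 2 came from the early screen, which sorted fewer droplets per guide and consists of round 1 with replicates 1 and 2. The other 8 came from the main screens, which sorted more droplets per guide and comprise rounds 2 to 5 with 2 replicates each. All 10 were made from Ethanol Red, an industrial bioethanol strain of Saccharomyces cerevisiae that carries a cassette for secreted α-amylase, transformed with the activation plasmids, grown at 30 °C with geneticin at 400 μg/mL and induced with 500 ng/μl anhydrotetracycline when droplets were formed. The low fraction is what the sorter left after it took the brightest droplets, and its cells were grown overnight on plates before the plasmids were recovered, so both groups share the sort and a growth step. In the tables the deposited value is the number of reads on each of 40890 guides of 20 bases.

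In a pooled activation screen each cell carries a plasmid with 1 guide RNA, which brings a nuclease-dead Cas9 fused to the VPR activator to the region upstream of a gene or of a noncoding transcript. The guide is then read by PCR as a barcode, so its share of reads stands for the share of recovered plasmids. How many guides are seen, and how evenly, depends on how many cells pass each transformation, droplet and plating step. Noncoding targets of the library include SUTs, noncoding RNAs that are stable in wild-type cells, and CUTs, which are degraded soon after they are made.

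The guides that best show how the screens differ and what they share are printed first, 5′ to 3′ as DNA letters, with the 10 bases next to the PAM (the seed of Cas9 targeting) in capitals. Each is named by the gene or transcript with which the study's supplementary lists pair it. The first 6 were abundant in the main low fractions and nearly missing from the early ones.
BNA7: atggtccaaaCCTAAGGTTA
snR63: ggaggatataACACAAACAG
NMA2: agttcttcatTTGGCTGTGG
PRY2: gcagaactagAATGCGTGAG
EMW1: aatattatatCAACTTAAGG
PDI1: ggcacaccacTTATAATGCG
The next 5 were seen in both early libraries and in none or 1 of the main ones.
TIF1: ccgtgcttatATCATCGAGG
TFC1: ataaataacaTCCTAAAGAC
NDD1: gcgtcccgttTCTTTTCGCG
CUT557: aagtgctagtAGAGAATGAG
SUT548: tgttcttgctTACGGGAGTG
The last 3 were abundant in every low fraction library of both screens.
SUT140: ggacgagaatAACTCGCTTG
FMC1: gtttcatttgCAGCGATAAG
SML1: gcccgtttggGCTCAGCGCG
No 2 of these 14 guides share their 10 capital bases, and their GC content ran from 20% for EMW1 to 75% for SML1.

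The early screen was not sequenced less deeply than the main ones. The early libraries held 1883257 and 809772 reads, whereas the main libraries ranged from 50433 to 2464879 reads with a median of 971138, and 3 main libraries held fewer than 400000 (both of round 2 and replicate 1 of round 3). Before the comparison, the libraries were checked against each other, and those of rounds 2 and 4 with the same replicate number stood apart. Of the 2879 guides at 100 CPM (a guide's reads scaled to a library total of 1000000) or more in replicate 1 of round 4, 97.1% had reads in replicate 1 of round 2, and of the 1964 such guides in replicate 2 of round 4, 94.5% had reads in replicate 2 of round 2. Among guides that no other low library held, 86.0% of 43 and 89.4% of 47 recurred in this way, at a median of 0.00726 and 0.0104 reads in round 2 for each read in round 4. These 2 pairs of libraries therefore share guides beyond what other pairs do, their part in the results was not tested, and values without round 2 are given where they move a result.

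Each low library held a minority of the designed guides. The early libraries detected 8954 and 5119 guides with at least 1 read, which is 21.9% and 12.5% of the library, and the main libraries detected 5128 to 11382 (median 8273). At 10 reads or more these counts were 6586 and 3769 in the early libraries and 648 to 7380 in the main libraries. The ranges overlapped on both measures.

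When all libraries were thinned to the 50433 reads of the shallowest, the expected number of guides was 5864 and 3701 in the early replicates and 3018 to 6533 in the main libraries. The mean was 4782 ± 1530 (SD, n = 2) against 4933 ± 1301 (SD, n = 8), a difference of -151 guides that an exact two-sided permutation test did not distinguish from 0 (p = 0.889, adjusted p = 0.889 over 5 library measures). The difference was 6.45 guides without both round 2 libraries, so its direction is not settled. The gap between the 2 early replicates was larger than the difference between the screens. With 2 against 8 libraries there are 45 ways to draw the groups, and the smallest two-sided p is 0.0444. Since the labels do not say whether replicates came from separate cultures, these p-values measure the spread between the libraries at hand. The early screen is also the only round 1 and was counted in a table of its own, so screen, round and count table cannot be told apart.

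**Figure D1:**
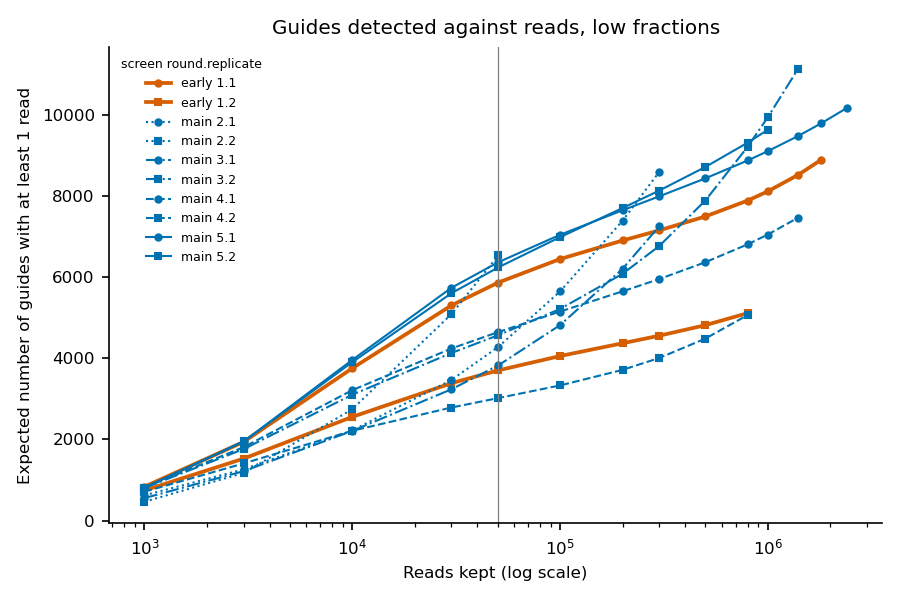
Expected number of guides with at least 1 read (y axis) after thinning to a given number of reads (x axis, log scale), with 1 line per low fraction library, early in orange and main in blue, line style by round and marker by replicate. At the grey line, 50433 reads, the early replicates stand at 5864 and 3701 guides, inside the 3018 to 6533 of the main libraries.

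The tail of guides with few reads was shorter in both early libraries than in any main one, though the test did not hold after adjustment. Guides with 1 to 9 reads made up 26.4% of the detected guides in each early library, and 27.7% to 90.1% (median 51.3%) in the main libraries, with no overlap. The difference of -26.7 percentage points was the most extreme that 45 draws allow (exact permutation p = 0.0444), and adjusted over the 5 measures the p was 0.222. It was -17.2 points without round 2 and -12.8 points without the 3 main libraries under 400000 reads. Such guides held 0.245% and 0.459% of the early reads and 0.293% to 27.7% of the main reads. This measure was chosen after its values were seen.

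Evenness differed between the screens by less than the spread between libraries. The effective number of guides, the exponential of the Shannon entropy, was 3754 and 2087 in the early libraries and 186 to 3346 (median 2303) in the main ones, with a mean difference of 909 (exact permutation p = 0.489, adjusted p = 0.611). The 10 most abundant guides held 2.75% of reads (Wilson interval at 95%, 2.73% to 2.78%) and 3.54% (3.50% to 3.58%) in the early libraries, where the intervals cover counting error only. In the main libraries they held 2.56% to 49.6% (median 8.25%), and the difference of -12.6 points had p = 0.267 in the exact permutation test (adjusted p = 0.611). Without both round 2 libraries the differences in effective number and in this share were 451 guides and -6.96 points. Without the 3 main libraries under 400000 reads they were 58.8 guides and -2.24 points. The single most abundant guide took 0.452% and 0.630% of the early reads and 0.468% to 28.8% of the main reads.

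The 6 guides for BNA7, snR63, NMA2, PRY2, EMW1 and PDI1 made up much of the reads on top guides in some main libraries. Together they held 6 reads in the 2 early libraries, 5 of 1883257 and 1 of 809772. In the main libraries they held 48.7% of reads in replicate 2 of round 2, 32.5% in replicate 1 of round 3, 10.4% in replicate 1 of round 2 and 1.05% to 7.38% in the other 5. Without them, a set chosen after the values were seen, the effective number of guides was 1626 to 4460 in the main libraries (mean 2983 ± 1084, SD, n = 8) beside 2920 ± 1178 (SD, n = 2) in the early ones. The share of the 10 most abundant guides was then 1.65% to 6.76% beside 2.75% and 3.54%, and both differences changed sign to -62.7 guides and 0.206 points.

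**Figure D2:**
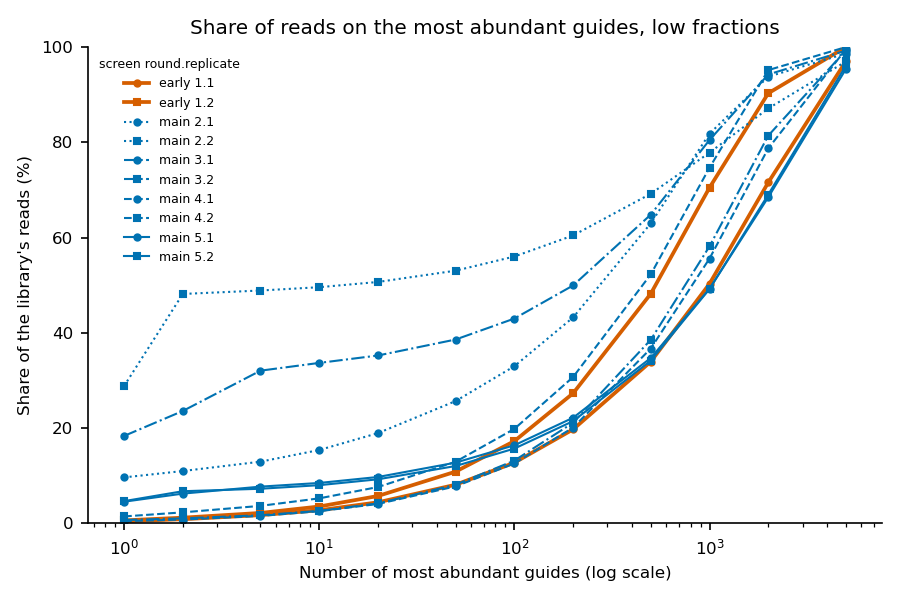
Share of a library's reads (y axis, %) held by its most abundant guides (x axis, number of guides on a log scale), with 1 line per low fraction library, early in orange and main in blue. The 10 most abundant guides hold 2.75% and 3.54% of the early reads and 49.6% of the reads in replicate 2 of main round 2.

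The same guides tended to recur between the screens. Of all 40890 guides, 20442 had no read in any of the 10 libraries, and 1016 had reads in all of them. The early libraries together saw 10586 guides, of which 3487 (32.9%) were in both, and the 4 main rounds saw 9323 to 13701 guides per pair of replicates, of which 35.7% to 45.8% were in both. Of the guides seen in any early library, 89.3% were also seen in a main library, which is 48.9% of the 19312 guides seen in any main library. With 8 main and 2 early libraries these shares have different chances to fill.

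Recurrence followed the early level. Guides without an early read were seen in 0.773 of the 8 main libraries on average. With an early mean of up to 1 CPM it was 3.01, with 1 to 10 CPM 3.31 and with 10 to 100 CPM 3.93. Guides of 100 to 1000 CPM were seen in 5.52 and the 62 above 1000 CPM in 7.68. Of the 2133 guides with at least 10 reads in both early libraries, 98.1% had a read in a main library (Wilson interval at 95%, 97.5% to 98.6%, counting error only), and 94.1% had 10 or more in at least 1. In the low fractions of the repression screens, which carry the same guides on another plasmid library, 98.9% of these 2133 were also seen.

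An abundant guide was nevertheless often at 0 reads elsewhere. Of the guides at 100 CPM or more in early replicate 1, 48.2% had no read in early replicate 2, and in the other direction the share was 22.4%. Of abundant early guides, 21.6% to 50.3% (median 33.1% over 16 ordered pairs) had no read in a given main library, and of abundant main guides 22.1% to 51.3% (median 35.5%) had none in a given early library. Between replicates of 1 main round the share was 19.3% to 40.7% (median 27.9%), and between main rounds it was 2.92% to 51.0% (median 26.5%), with the lowest values in the pairs of rounds 4 and 2 named above.

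**Figure D3:**
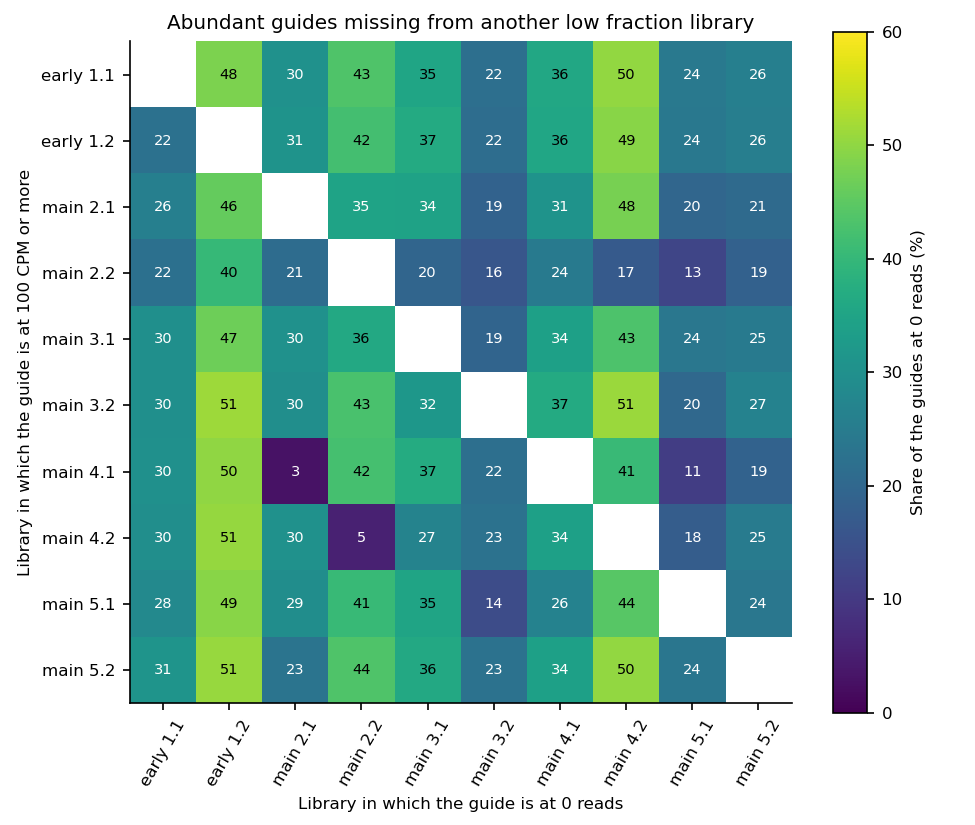
Share (colour and printed number, %) of the guides at 100 CPM or more in the library of the row that have 0 reads in the library of the column, over the 10 low fraction libraries named by round and replicate. The 2 darkest cells, 3% and 5%, are round 4 against round 2 of the same replicate number, and 48% of the abundant guides of early replicate 1 are missing from early replicate 2.

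Read shares of the 2 early replicates resembled each other about as much as they resembled the main libraries. Over all guides the Spearman correlation was 0.444 between the early replicates and 0.435 ± 0.047 (SD over 16 pairs, range 0.364 to 0.513) between an early and a main library. It was 0.499 ± 0.037 (SD over 4 pairs) between replicates of a main round and 0.485 ± 0.049 between main rounds without the same-numbered libraries of rounds 2 and 4, which reached 0.622 and 0.558. These correlations are across guides, which are not replicates, and all of them count the many guides at 0 in both libraries. Over the 15487 guides with at least 10 reads in a low library they were lower. They were 0.276 between early replicates, 0.253 between early and main, 0.327 within a main round and 0.332 between main rounds. The last value keeps the same-numbered libraries of rounds 2 and 4, and with them the value over all guides was 0.494. Of the 100 most abundant guides, 23 were shared by the early replicates and 7 to 34 by an early and a main library. Early replicate 2 stood below early replicate 1 against each of the 8 main libraries, at 0.364 to 0.428 beside 0.410 to 0.513. Both early libraries correlated more with the 4 repression low libraries, another plasmid library, than with any main activation low library. By Pearson correlation of log2(CPM + 1), early replicate 1 had 0.516 to 0.530 with repression and 0.378 to 0.497 with main activation. Early replicate 2 had 0.425 to 0.434 and 0.331 to 0.420, and the reason was not tested.

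Guide by guide, the likelihood ratio test of edgeR on RLE-normalised counts, coded early over main, tested 10386 guides. At a log2 fold change (log2 FC) beyond 3 and an FDR under 0.05, 7 guides were higher in early (0.0674% of those tested) and 3 were higher in main (0.0289%). At an unadjusted p under 0.05 there were 233 and 1085. The filter asked for enough reads in 2 libraries, so a guide could enter the test through 1 screen alone. Of the tested guides, 2650 were at 0 in both early libraries and 37 were at 0 in all main libraries. The numbers in each direction and the median log2 FC below carry this imbalance and do not measure a difference between the screens. Values did not overlap between the screens for 302 tested guides with early above and for 129 with main above. A lack of overlap alone therefore does not single out a guide. The median log2 FC of all tested guides was -1.51, and it was -1.27 with TMM and -0.94 with library size alone, so single fold changes are read against that shift. The spread between libraries was large, with a common dispersion of 5.196. Counts were also simulated for this comparison with the dispersion fitted to each guide. There, 2% of guides raised by a log2 FC of 5 and 0% of guides lowered by it were called among 8907 tested. A low number of calls therefore does not show that the screens hold guides alike. No call held in every alternative setting, as given in the closing section.

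**Figure D4:**
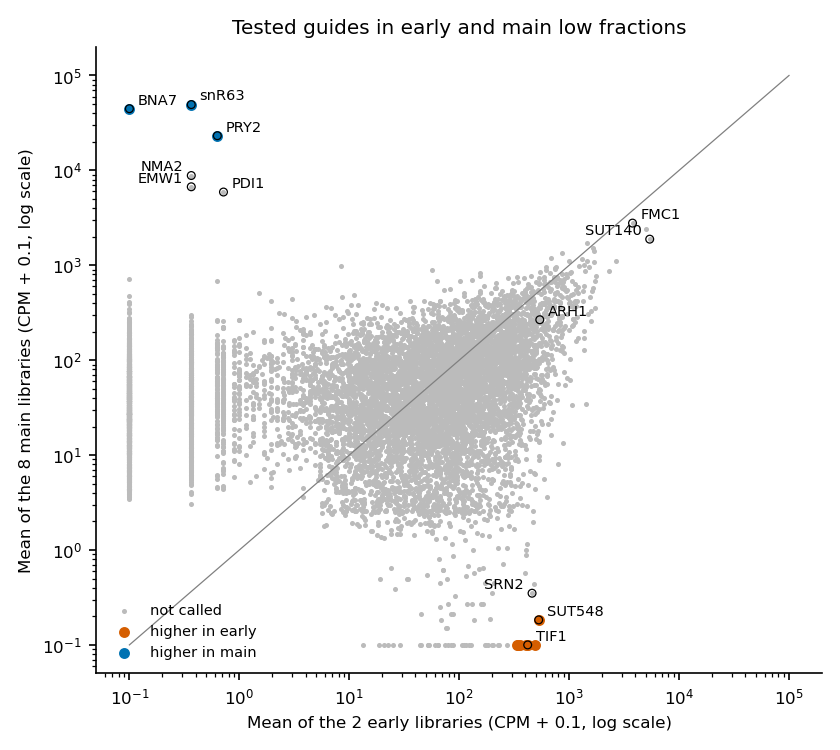
Mean CPM plus 0.1 over the 8 main libraries (y axis, log scale) against the 2 early libraries (x axis, log scale) for the 10386 tested guides, with called guides in colour, named guides circled and a line of equal values. BNA7, snR63 and PRY2 stand at the upper left with at most 2 early reads, and the 7 guides higher in early stand at the lower right with at most 1 main read.

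The guide for BNA7, the arylformamidase of NAD+ synthesis from tryptophan (chromosome IV, 1323454 to 1324239 in R64), had 0 reads in both early libraries. It had reads in all 8 main libraries, from 3582 to 193326 CPM with a median of 13633. The groups did not overlap, which held with main above for 129 of the 10386 tested guides. Over the pooled reads it was at least 13298-fold higher in main, against a floor of 3 reads in the early libraries together, and the fitted log2 FC was -19.36 (SE 4.24, adjusted p = 0.030 in edgeR). The pooled bound covers counting error only, not the spread between libraries. A fold change fitted against 0 reads depends on the prior count and carries no bound of its own.

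The guide for snR63, a snoRNA (chromosome IV, 323217 to 323471), showed the same pattern with 1 early read. It had 0.531 and 0 CPM in the early libraries and 1737 to 288283 CPM (median 10983) in the main libraries, again without overlap. The log2 FC was -17.45 (SE 4.05, adjusted p = 0.034 in edgeR), and the pooled ratio of main to early was 43602, with a counting interval of 7826 to 1722213. For PRY2, which encodes a secreted sterol-binding protein, the third call rested on 1 library. Its guide had 1.06 and 0 CPM in early, 183536 CPM in replicate 1 of main round 3 and 0 to 1507 CPM in the other 7, so that library held 99.0% of its main reads and the groups overlapped at 0. The log2 FC was -16.37 (SE 3.93, adjusted p = 0.036 in edgeR), and without the 3 main libraries under 400000 reads, of which that is 1, it was -6.99 (adjusted p = 0.469).

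The guides for NMA2, EMW1 and PDI1 did not pass the test. NMA2, an NMN adenylyltransferase of NAD+ synthesis, had 0.531 and 0 CPM in early and 318 to 45492 CPM (median 3624) in main, without overlap (log2 FC -14.58, adjusted p = 0.093 in edgeR). EMW1, an essential gene of cell wall maintenance, had 0.531 and 0 CPM in early and 0 to 52447 CPM (median 68.7) in main. PDI1, the protein disulfide isomerase of the ER, had 0 and 1.23 CPM in early and 1.22 to 43738 CPM (median 667) in main, so the last 2 overlapped between the screens (log2 FC -15.29 and -14.28, adjusted p = 0.068 and 0.0998 in edgeR). Replicate 1 of round 3 held 97.2% of the main reads of EMW1 and 85.5% of those of PDI1, and replicate 1 of round 5 held 83.7% of those of NMA2.

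These 6 guides were not missing from the early screen as a whole. In the 2 early high fraction libraries, BNA7 had 360 and 1202 reads, snR63 had 1219 and 171, and NMA2 had 253 and 1868. PRY2 had 1746 and 324, EMW1 had 2041 and 1882, and PDI1 had 441 and 212. In the 4 repression low libraries, median levels ran from 33.4 CPM for PRY2 to 328 CPM for NMA2. Among all guides, 75 were seen in all 8 main libraries and neither early one, with a median mean level of 99.0 CPM, and 70 of these had 3 reads or fewer in at least 1 main library.

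In the other direction, 115 guides were seen in both early libraries and no main one, at a mean early level of 1.15 to 591 CPM (median 78.0). Of these 40 had at least 10 reads in each early library, and 6 were among the 7 guides called higher in early. TIF1, which encodes the translation initiation factor eIF4A (chromosome XI, 554987 to 556174), had 245 and 594 CPM in early and 0 reads in each main library. It was at least 945-fold higher over the pooled reads against a floor of 3 main reads. This bound and the similar ones below cover counting error only, not the spread between libraries. TFC1, a subunit of the RNA polymerase III factor TFIIIC, had 109 and 694 CPM, and NDD1, an activator of mitotic gene expression, had 273 and 399 CPM. Both had 0 main reads and were at least 769-fold and 838-fold higher.

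The remaining calls were noncoding or unpaired. CUT557 had 109 and 599 CPM in early and 0 main reads (at least 691-fold). SUT548 had 169 and 887 CPM and 1 read in the 8 main libraries, in replicate 2 of round 3. The other two called guides have no paired gene, and had 31 and 773 reads and 48 and 532 reads in the early replicates. Early replicate 2 was higher than replicate 1 for all 7, and their log2 FC was 11.13 to 12.22 with adjusted p of 0.030 to 0.043 in edgeR. None had a read in an early high library. A guide for SRN2, an ESCRT-I subunit named in the study, was close to this group with 226 and 694 CPM in early and 3 main reads (log2 FC 9.87, adjusted p = 0.095 in edgeR).

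The early guides with the highest mean had reads in each main library too, at levels that varied. SUT140, the leading early guide by its mean, had 4515 and 6296 CPM in early and 448 to 5197 CPM (median 1428) in main. FMC1, a mitochondrial protein needed to assemble the ATP synthase, had 3960 and 3584 CPM in early and 445 to 13351 CPM (median 1080) in main. SML1, an inhibitor of ribonucleotide reductase, had 2418 and 2960 CPM in early and 544 to 2000 CPM (median 1076) in main, so its groups did not overlap, though the test gave an adjusted p of 0.877 in edgeR. TCM62, a mitochondrial chaperone, had 1235 and 3391 CPM beside 190 to 1566, and CUT630 had 1529 and 1946 CPM beside 83.6 to 1323. SUT148 had 640 and 2797 CPM beside 50.5 to 969. A guide with no paired gene had 2175 and 1251 CPM in early and fell to 1.19 CPM, a single read, in replicate 2 of main round 4 (main median 648, highest 1605). Among these guides, SUT140 and FMC1 were scarce in the 4 repression low libraries, at 1.87 to 24.4 CPM and 2.23 to 30.9 CPM, whereas SML1 had 675 to 1700 CPM and CUT630 had 1039 to 1435 CPM there.

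**Figure D5:**
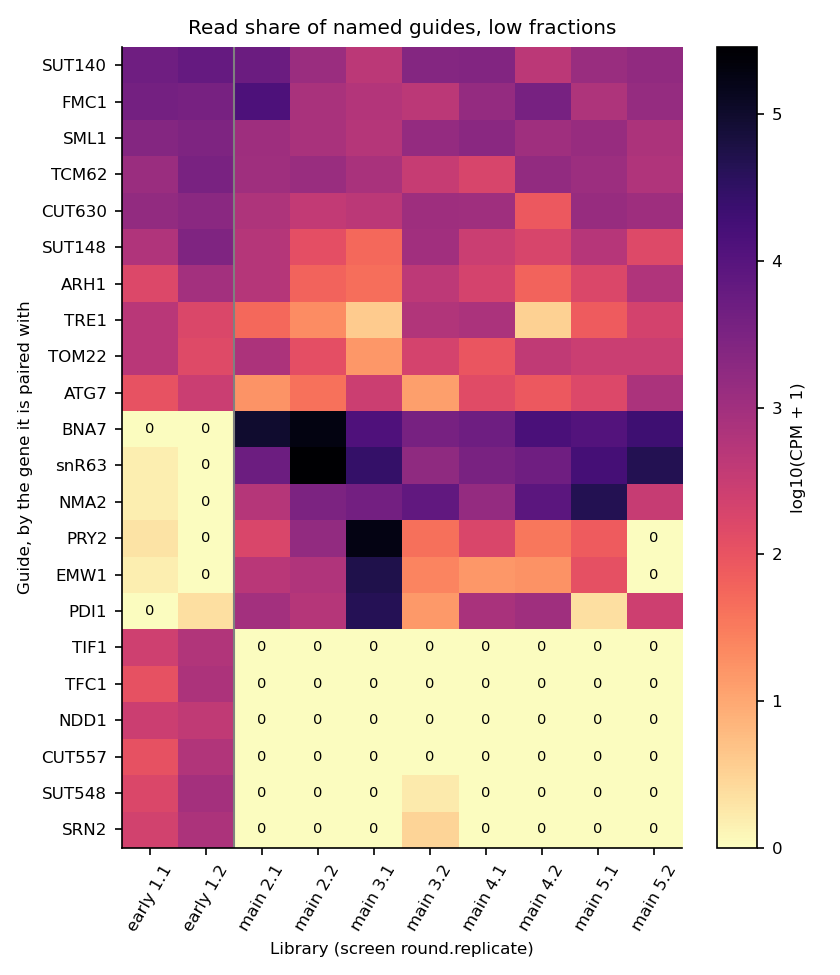
Read share (colour, log10 of CPM + 1) of 22 named guides (rows) in the 10 low fraction libraries (columns, screen then round and replicate), with 0 printed where a guide has no read. SUT140 to ATG7 have reads in all 10 libraries, BNA7 to PDI1 are at 0 to 1.23 CPM in early, and TIF1 to SRN2 are at 0 in at least 7 of the 8 main libraries.

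Of the genes that the study names as hits or candidates, 27 were followed here, each through its paired guide with the highest mean, and they were held unevenly. Of these 27 guides, 19 were tested and 8 were not, because too few libraries held enough reads. ARH1, the mitochondrial adrenodoxin reductase, had 159 and 922 CPM in early and 44.9 to 623 CPM (median 187) in main. TOM22, the receptor of the mitochondrial import channel, had 468 and 143 CPM in early and 14.02 to 689 (median 245) in main. TRE1, a transferrin receptor-like protein, had 475 and 168 CPM beside 2.39 to 740, and ATG7, the E1-like enzyme of autophagy, had 104 and 284 CPM beside 11.4 to 748. Each of these 4 had reads in all 10 libraries, and their groups overlapped.

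Others had reads in 1 early replicate or in few main libraries. ERV46, a cargo receptor of ER to Golgi vesicles, had 455 and 0 CPM in early and 0 to 79.1 in main, and CHS6, an exomer subunit, had 180 and 0 CPM beside 0 to 226. YOS1, also of ER to Golgi transport, had 541 and 153 CPM in early, 936 CPM in replicate 1 of main round 2, and 0 CPM in 4 main libraries. The guides for ENO2, ALP1, GMH1 and PET122 had 0 early reads and 12 to 23 main reads in all. Those for COX18, VPS27, MDH1 and COQ2 had 1 or 2 early reads and 9 to 59 main reads, and none of these 8 could be tested.

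No guide of the secretory pathway lists was called. These lists and the paired guides come from supplementary lists that the study drew from its screens, 2278 guides for 1987 features, so they are richer in reads than the library and not independent of it. Of the paired guides, 2164 were seen in an early library and 2239 in a main one, 2135 were tested, 5 were called higher in early and 3 higher in main, and their median log2 FC was 0.17 beside -1.51 for all tested guides. In ER folding, 5 guides for 4 of the 15 listed genes were tested, none was called, and the median log2 FC was 0.59. In ER translocation the 4 tested guides, for 4 of 17 genes, had a median log2 FC of 0.04. In ER to Golgi transport the 11, for 10 of 22 genes, had 0.21, and in late secretion the 8, for 6 of 21 genes, had 0.10, again with no call. Reads in both early libraries were found for 3 of 5 guides of ER folding, 3 of 4 of ER translocation, 6 of 11 of ER to Golgi transport and 3 of 8 of late secretion, beside 1698 of all 2278 paired guides. SEC61, the translocation channel, had 1074 and 98.8 CPM in early and 368 to 1305 CPM in main, and MPD1, a relative of the disulfide isomerase, had 821 and 757 CPM beside 122 to 941.

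Calls in the other groups were few as well. Glycolysis had 3 tested guides with a median log2 FC of 1.88 and no call, and for TDH3, glyceraldehyde-3-phosphate dehydrogenase, the early values of 239 and 726 CPM lay above the 0 to 39.7 CPM of main (log2 FC 6.56, SE 2.35, adjusted p = 0.376 in edgeR). Autophagy had 15 tested guides (median log2 FC 2.16), vacuolar sorting 8 (-0.34), the cytosolic ribosome 46 (-0.15) and the mitochondrial ribosome 15 (-0.10), all without a call. Of 254 tested SUT guides 1 was higher in early and none in main, as with 276 tested CUT guides, and their medians were 0.30 and 0.25. Of 13 tested snoRNA guides, snR63 alone was called. Over all 36 paired guides of the study's own genes 24 were tested and 2 were called, BNA7 and PRY2, both higher in main. Over all 10386 tested guides the shares called were 0.0674% higher in early and 0.0289% higher in main. The study named its genes from comparisons of high with low fractions, so this list is not independent of these counts. The 2 calls of 24 tested guides are a larger share than over all tested guides. This share cannot be read as an enrichment, which was not tested.

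Base composition hardly separated the screens. The read-weighted GC content was 42.2% and 41.6% in the early libraries and 40.6% to 42.2% in the main ones, above the mean of 38.5% over all designed guides in every library. The difference of 0.341 points between the means had p = 0.489 in the exact permutation test (adjusted p = 0.611). Detection was higher at the ends of the GC range than in its middle in both screens. Of guides above 55% GC, 24.2% and 36.7% were detected in the early libraries and 22.5% to 42.8% in main. Of guides with 35% to 45% GC it was 10.2% and 18.2% in early and 10.5% to 23.4% in main. Guides with 4 thymines in a row, a stop signal for RNA polymerase III, make up 11.3% of the library and took 12.2% and 12.0% of early reads and 6.397% to 12.5% of main reads.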

How the data were processed

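Guide amplicons of sorted cells were sequenced, and per the study's methods the authors split the reads by barcode (Je), mapped them to the designed guides with padding (BWA) and deposited counts of reads per guide, without normalization and with replicates apart (versions are not given in the sources used here; the labels name the build sacCer3). Both deposited count tables list the same 40890 guides, and 0 value columns were left unused. Depth was 50433 to 2464879 reads per low library. No molecular identifiers were used, so intervals cover counting error only.

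Early and main low fractions were compared with edgeR 4.0.16 (filterByExpr, RLE, glmFit and glmLRT, prior count 0.125, Benjamini-Hochberg) in R 4.3.3, with DESeq2 1.42.0 as an alternative. The standard error was the log2 FC over the root of the likelihood ratio. Library measures were compared by exact permutation over libraries with SciPy 1.17.1, and thinning used the hypergeometric expectation. The test was checked on simulated counts: with a dispersion of 0.1, 100% of guides raised and 93% of guides lowered by a log2 FC of 5 were called among 9868 tested.

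Named guides are, for each of 27 genes the study names (some others are not reported here), its paired guide with the highest mean CPM, the 8 guides with the highest mean CPM in each screen, and up to 8 called guides per direction with values that do not overlap; PRY2 was called with overlapping values and was named by the first part. Supplementary hit lists pair 2278 guides with 1987 features, of which 1462 matched the R64 gene table. Members and lists were chosen with earlier results of these data known. Replicate numbers did not pair early with main libraries, the only pairs checked for this. Same-numbered libraries of main rounds 2 and 4 shared guides as described above. The alternatives are given in the closing section.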

Additional observations from a re-analysis of the deposited data

Results flagged for a closer look

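In 7 of 19 measures over the 8 main libraries, 1 library lay far from the others (a gap to the next of over 0.526 of the range). All 7 were guides picked by their high mean or their test result. SUT140 was picked by its mean in the early libraries, and the others in these same main libraries. A single extreme library can raise both, so the count is a description and has no chance rate to be set against. In replicate 1 of round 3, PRY2 stood at 183536 CPM, EMW1 at 52447 CPM and PDI1 at 43738 CPM. In replicate 1 of round 2, FMC1 stood at 13351 CPM and SUT140 at 5197 CPM. In replicate 2 of round 2, snR63 stood at 288283 CPM, and in replicate 1 of round 5, NMA2 stood at 45492 CPM.

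The 6 guides with at most 2 reads each in the early low libraries had signal in the early high libraries, which the comparisons above do not use. Their mean there was 1370 CPM for EMW1, 888 CPM for NMA2, 624 CPM for BNA7, 607 CPM for PRY2, 399 CPM for snR63 and 210 CPM for PDI1. In the main high libraries the mean was lower for EMW1 (13.5 CPM), PRY2 (15.9 CPM) and PDI1 (198 CPM). It was higher there for NMA2 (970 CPM), BNA7 (29804 CPM) and snR63 (49053 CPM). The same contrast of early with main in the high fractions tested 2661 guides and called 0.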

How the results depend on the processing

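Guide calls depended on the setting. The numbers higher in early and in main, 7 and 3 at first, were 1 and 6 with glmQLFTest, 86 and 644 with DESeq2, 0 and 3 with TMM, 10 and 6 with library size alone, 0 and 0 without a filter (2100 of 20448 guides at an unadjusted p under 0.05), 0 and 0 with replicates summed within a round (1833 of 15162), 2 and 6 without round 2, and 1 and 3 without the 3 libraries under 400000 reads. All 10 calls were among those of DESeq2. With the replicate number as a block they were 9 and 4. Early libraries did not deviate together with same-numbered main libraries (mean correlation 0.00053). Leaving out 1 library gave 0 to 27 and 0 to 6. Without early replicate 1 they were 27 and 0, and both were 0 without early replicate 2, main replicate 2 of round 2 or main replicate 1 of round 5. Without replicate 1 of round 4 they were 0 and 1, as without replicate 2 of round 5. For 14 guides, the called ones and NMA2, EMW1, PDI1 and SRN2, 21 settings were run; BNA7 was called in 15, snR63 in 13, PRY2 in 10 and NDD1 in 5, and none of these 14 fold changes turned.

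The difference in guides detected, -151 at matched depth, was -706 thinned to 200000 reads without the shallower library and, with no thinning, -1349 at 1 read and 1156 at 10 reads. At matched depth it was 6.45 without round 2, and -1233 to 931 leaving out 1 library (931 without early replicate 2, 77.6 without replicate 2 of round 2, 53.5 and 35.4 without replicate 1 or 2 of round 5). Leaving out 1 library, the difference in effective number ranged from 75.8 to 1742. It was 451 without round 2, 58.8 without the 3 shallow libraries and -62.7 without the 6 guides. The 10-guide share ranged from -14.4 to -7.71 points leaving out 1 library. It was -6.96 without round 2, -2.24 without the 3 shallow libraries and 0.206 without the 6 guides. GC ranged from 0.0651 to 0.618 points. For guides with 1 to 9 reads the range was -30.3 to -21.4, with exact permutation p = 0.400 averaging replicates (-26.7), 0.0714 without round 2 (-17.2) and 0.0952 without the 3 shallow libraries (-12.8), the smallest each allows. Early guides seen in main were 96.7% at 1 read, 99.0% at 100 reads, 94.1% at 10 main reads, 97.2% without the 3 shallow libraries, and 97.5% to 98.1% leaving out 1. The early to main correlation was 0.253 over guides with 10 reads, and 0.400 to 0.470 leaving out 1 library. Settings without round 2, without shallow libraries or without the 6 guides were chosen after seeing the data. At the fitted spread, simulated log2 FC of 5 were rarely called; depth was not varied there.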
